A study of Mus musculus with 9 samples.

Results

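Hsf1, the master transcription factor of the heat shock response, and 9 genes for heat shock proteins or their partners (Hspa1a, Hspa1b, Hspa8, Hsph1, Hsp90aa1, Dnajb1, Bag3, Hspb1 and Cryab) were taken by gene symbol from the deposited RNA sequencing table, 10 of its 31167 genes. All 10 passed the filter on low values, which left 13985 genes to be tested. The cells were primary cultures of renal tubular epithelium made from kidneys of C57BL/6 mice, and each of 3 groups had 3 libraries. Sham cells were not treated. H/R cells were kept in hypoxia for 6 h at 1.0% oxygen in medium without glucose and then reoxygenated for 18 h, a culture model of ischaemia and reperfusion. EGR1OV cells were transfected with a plasmid that drives Egr1, an immediate early zinc finger transcription factor, from a CMV promoter, and no empty-vector group is among the groups compared. The EGR1OV differences therefore hold Egr1 overexpression and the transfection together, and the 2 cannot be told apart here. Nothing says whether the libraries of a group came from separate cultures or animals, so p-values measure only the spread between these libraries.

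Heat shock proteins are molecular chaperones that keep other proteins folded. In resting cells Hsf1 is held inactive by chaperones, and when unfolded proteins draw these chaperones away, Hsf1 forms trimers, binds heat shock elements in promoters and switches on genes such as Hspa1a, Hspa1b, Dnajb1, Hsph1, Bag3 and Hspb1. Kidney tubule cells are known to induce inducible Hsp70 and Hspb1 after ischaemia. Hsf1 activity is set largely at the level of the protein, which RNA levels do not show.

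Levels are given in FPKM (fragments counted on a gene per kilobase of its exons, scaled by the library's total), and so compare genes per length. Differences are given on the log2(FPKM + 1) scale with the standard error (SE) and the Benjamini-Hochberg adjusted p of a limma fit over all tested genes. That scale understates the change of genes with low FPKM. A gene passed the test at an adjusted p under 0.05, and was called where it also differed by at least 1.3-fold (EGR1OV against Sham or H/R) or 1.2-fold (H/R against Sham) on that scale. The depth recovered from the table was 16183617 to 18384022 reads per library. Egr1 itself averaged 6.40 FPKM in Sham, and its mean was 7.88 after H/R but 42.7 in the transfected cells, so the label of the transfected libraries holds. Epithelial markers (Krt8, Krt18, Cdh1, Epcam) were present in every group, while Umod, a marker of the thick ascending limb, was listed at 0 and Slc34a1, the proximal phosphate transporter, was near 0. The small noncoding gene Gm23935 was above 19000 FPKM in Sham 3, H/R 2 and H/R 3, at no more than 0.124% of the reads of a library. Results of the 10 genes that lose their pass without these libraries are given both ways below. The same holds for other chaperone genes that lose a call, while those that lose only a pass are named in part. Fewer cells of a type and less RNA per cell cannot be told apart in these bulk libraries.

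Promoter sequence was looked at first, because the heat shock element is what joins most of these genes. RefSeq (GRCm38.p6) gave windows of 250 bases before to 50 bases after a start site for 6 of the 10 genes, namely Hspa1a, Hspa1b, Hspb1, Hsph1, Bag3 and Dnajb1, while Hsf1, Hspa8, Hsp90aa1 and Cryab were not matched. Each window was searched on both strands for the paired units GAANNTTC and TTCNNGAA, both palindromes, and for the run of 3 units that joins them (TTC, GAA and TTC, each 2 bases apart), which overlaps both. GAANNTTC or TTCNNGAA stood in 15.1% of all 32851 promoter windows of that length, and in windows of 5 of the 6 genes. The exception was Dnajb1. These letters are a description of the windows and not evidence of binding. The following stretches carry the matches, written 5′ to 3′ on the strand of the gene with the matched units in capitals, and each is shown because its gene has values below that can be read beside it.
Hspa1a: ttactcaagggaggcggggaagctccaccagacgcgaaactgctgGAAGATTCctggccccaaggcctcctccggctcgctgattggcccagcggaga
Hspb1: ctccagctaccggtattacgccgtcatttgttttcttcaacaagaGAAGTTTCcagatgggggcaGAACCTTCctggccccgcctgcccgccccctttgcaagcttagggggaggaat
Hsph1, before the start: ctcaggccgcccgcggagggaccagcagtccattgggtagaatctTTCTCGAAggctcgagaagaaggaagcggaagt
Hsph1, after the start: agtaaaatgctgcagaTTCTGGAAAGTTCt
Bag3, after the start: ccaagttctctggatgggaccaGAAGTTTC

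The Hspa1a stretch lies on the minus strand at chr17:34972208-34972305, and Hspa1b has the same 98 letters at chr17:34959290-34959387, each with its unit starting 104 bases before the start site. The whole 300-base windows of this pair differed at 4 bases. Hspb1, on the plus strand at chr5:135887757-135887874, held a pair of GAANNTTC units that start 117 and 97 bases before its start. Hsph1, on the minus strand, had a TTCNNGAA unit 33 bases before the upstream of its RefSeq starts (chr5:149636337-149636414) and the run of 3 units from 37 bases after it (chr5:149636287-149636316). Such a run was found in 0.603% of all windows. Bag3, on the plus strand, had its unit 43 bases after the start (chr7:128523603-128523632). GCGNGGGCG, a short form of the Egr1 recognition sequence, stood in 5.55% of all windows and in no window of these 6 genes, which says only that these letters are absent from these 300 bases.

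**Figure D1:**
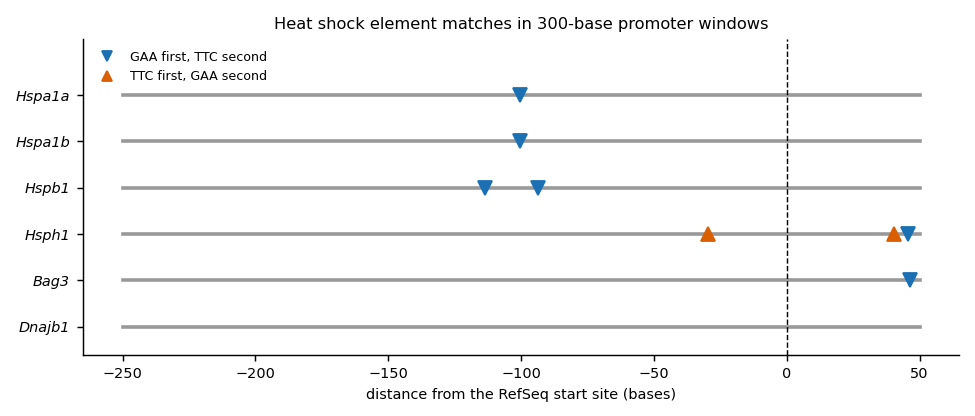
Positions of heat shock element units in the 300-base promoter windows of 6 genes, with the distance from the RefSeq start site in bases on the x axis and a grey line for each window; down triangles mark GAANNTTC and up triangles TTCNNGAA, and for Hsph1 and Dnajb1 the first of the RefSeq windows is drawn. Hspa1a, Hspa1b and Hspb1 carry their units before the start, Hsph1 on both sides, Bag3 after it, and Dnajb1 has none.

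With Egr1 overexpression the 10 genes moved in both directions. Against Sham, 7 of 10 passed the test, where 45.9% of all tested genes did. Hsf1, Hspa1b, Hsph1 and Bag3 were higher (4 genes, background 26.1% higher), and Hspa8, Hspb1 and Cryab were lower (3 genes, background 19.8% lower). These 7 kept their direction under each of the 20 alternative settings tried, and 6 of them passed the test in every setting, the exception being Cryab. Bag3 and Hspb1 also reached 1.3-fold, 2 of 10 beside 16.4% of all genes (9.87% higher and 6.51% lower), though neither did under quantile normalization. Over all genes that passed, the share that was higher depended on the scaling, 56.9% in EGR1OV against Sham and 35.5% in H/R against Sham as deposited, 51.8% and 61.2% under median-ratio scaling and 38.1% and 53.2% under quantile normalization. The median log2 difference was 0.128 over the 10 genes and 0.0172 over all tested genes. H/R cells were measured only after the 18 h of reoxygenation, so earlier levels were not seen. In H/R against Sham only Hspa8 passed, 1 of 10 beside 11.7% of all genes (4.15% higher and 7.54% lower), and the median difference was 0.0159, beside -0.0298 over all tested genes. No gene of the 10 was called against a background of 4.25% (1.60% higher and 2.65% lower). In that comparison limma gave 1 gene at an unadjusted p under 0.05, and voom on recovered reads gave 2 such genes and also no call. Median-ratio and quantile scaling each called 1, Hspa8. EGR1OV was also set against H/R directly, a comparison that shares its EGR1OV libraries with the first, and 7 of 10 passed (background 51.0%). The same 4 genes were higher (background 32.0%) and the same 3 lower (background 19.0%), with 3 called, Bag3, Hspa8 and Hspb1 (background 18.9%, of which 11.9% higher and 6.94% lower).

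**Figure D2:**
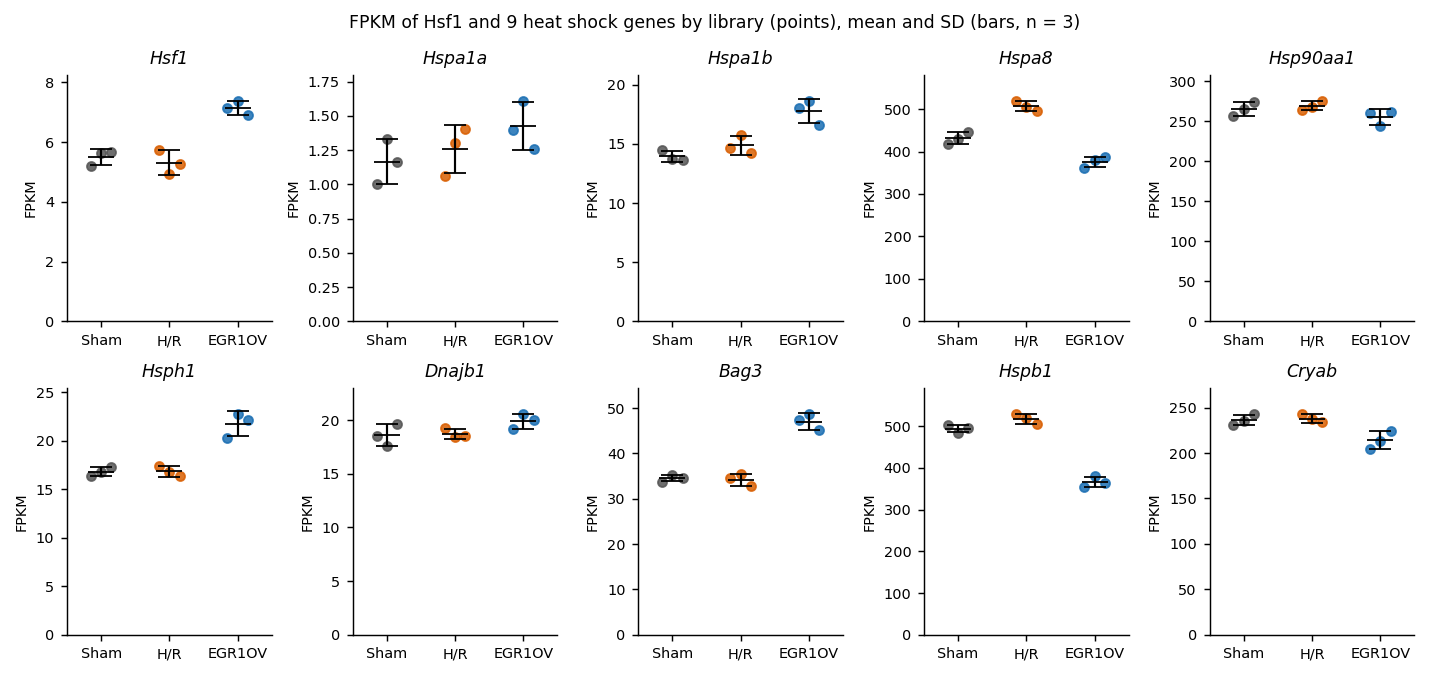
FPKM of the 10 genes in each of the 9 libraries, a panel per gene with its own axis from 0; points are libraries of Sham, H/R and EGR1OV, and bars give the group mean with the SD (n = 3). The EGR1OV points lie above both other groups for Hsf1, Hspa1b, Hsph1 and Bag3 and below both for Hspa8, Hspb1 and Cryab.

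Hsf1 (ENSMUSG00000022556, chr15:76477422-76501913, plus strand, GRCm38) stood at 5.21, 5.65 and 5.67 FPKM in Sham, at 5.74, 4.93 and 5.28 in H/R and at 7.14, 7.38 and 6.92 in EGR1OV. Every EGR1OV library was above every other library, and Sham and H/R overlapped. The mean rose from 5.51 ± 0.264 to 7.15 ± 0.228 FPKM (SD, n = 3 each), a ratio of 1.297, and the log2 difference was 0.32 (SE 0.055, adjusted p = 0.00109). Against H/R the difference was 0.37 (adjusted p = 0.000429). H/R against Sham gave -0.04 (adjusted p = 0.653), with a 95% interval of -0.168 to 0.0802. Hsf1 therefore passed the test but stayed under the 1.3-fold limit on the tested scale. Each value rests on 608 to 856 reads. Among 7588 genes that averaged 5 FPKM or more, the patterns most like that of Hsf1 over the 9 libraries belonged to the processed pseudogene Gm21399 (Pearson r = 0.993), Zfp609 (0.989) and Dcaf5 (0.985), as a description only, since the 3 EGR1OV libraries stand apart for each of them.

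Hspa1a and Hspa1b encode the stress-inducible Hsp70, the chaperone whose transcripts mark an active heat shock response, and Hspa8 encodes its constitutive counterpart Hsc70. Hspa1b (ENSMUSG00000090877, chr17:34956436-34959238, minus strand) stood at 14.5, 13.7 and 13.7 FPKM in Sham, at 14.7, 15.8 and 14.2 in H/R and at 18.0, 18.6 and 16.6 in EGR1OV. The EGR1OV libraries were above all others, while Sham and H/R overlapped. Its log2 difference was 0.33 against Sham (SE 0.051, ratio of means 1.27, adjusted p = 0.00062) and 0.24 against H/R (adjusted p = 0.00346). The second of these fell short of the threshold under quantile normalization (0.11, adjusted p = 0.0876). H/R against Sham gave 0.09 (adjusted p = 0.292).

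Hspa1a (ENSMUSG00000091971, chr17:34969190-34972156, minus strand) was the lowest of the 10 genes, with 1.00, 1.33 and 1.16 FPKM in Sham, 1.06, 1.302 and 1.41 in H/R and 1.40, 1.61 and 1.26 in EGR1OV. These values rest on only 49 to 78 reads, and the 3 groups overlapped. The difference of 0.16 between EGR1OV and Sham did not pass (adjusted p = 0.176, 95% interval -0.0419 to 0.365), an interval that holds both no change and the difference seen for Hspa1b. The ratio of means was 1.22, beside 1.27 for Hspa1b. With a pseudocount of 0.1 the differences were 0.27 for Hspa1a, which did not pass (adjusted p = 0.179), and 0.35 for Hspa1b. The pair is nearly a duplicate. Of the 100-base windows of the Hspa1a transcript 47.1% occur letter for letter in Hspa1b, and none occur in Hspa8, so the counting could have split or lost reads between the pair and each gene alone is uncertain. Hspa1a also shares 564 of its 2967 exon bases with Gm20481 on the other strand, and the sources do not say whether reads were counted by strand. Hspa1a made up 7.74% of the FPKM of the pair in Sham, 7.79% after H/R and 7.41% with Egr1 overexpression, with overlap between groups (exact permutation p of 0.7 or more for each pair of groups).

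Summed in each library, Hspa1a and Hspa1b gave 15.45, 15.04 and 14.82 FPKM in Sham, 15.7, 17.1 and 15.6 in H/R and 19.4, 20.2 and 17.9 in EGR1OV. No group overlapped another. EGR1OV against Sham was a ratio of 1.27, and H/R against Sham 1.07. Each of these comparisons gave an exact two-sided permutation p of 0.1, the smallest that 3 against 3 libraries allow (0.171 adjusted over the 12 such tests of sums and ratios). In the limma fit with the sum in place of Hspa1a the difference between EGR1OV and Sham was 0.32 (adjusted p = 0.000573). The pattern most like that of Hspa1a alone was found for Ankrd13a (r = 0.914), Gab1 (0.902) and the processed pseudogene Gm10060 (0.894), over the same 9 libraries and 7588 genes.

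Hspa8 (ENSMUSG00000015656, chr9:40800984-40810087, plus strand) moved the other way, and was the single gene of the 10 to pass the test after hypoxia and reoxygenation. It stood at 418.1, 429.8 and 445.6 FPKM in Sham, rose to 518.9, 505.7 and 495.9 in H/R and fell to 362.2, 379.1 and 386.2 in EGR1OV. No group overlapped another. H/R against Sham was a ratio of 1.18 and a log2 difference of 0.23 (SE 0.034, adjusted p = 0.00397), under 1.2-fold. That difference reached 1.2-fold and was called under median-ratio scaling and under quantile normalization. Without the 3 libraries high in Gm23935, which leaves 2 Sham libraries and 1 of H/R, that difference was 0.29 and did not pass (adjusted p = 0.0911). EGR1OV against Sham was -0.20 (SE 0.034, ratio 0.872, adjusted p = 0.00112), and EGR1OV against H/R was -0.43 (ratio 0.742, adjusted p = 6.22e-06). Counts were not a limit, with at least 25868 reads in each library. Introns of Hspa8 host small nucleolar RNAs, of which Snord14c, Snord14d and Snord14e overlap its annotated exons by at most 90 of 4301 bases.

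Within each library the balance between inducible and constitutive Hsp70 needs no scaling between libraries. The log2 ratio of Hspa1a plus Hspa1b to Hspa8 was -4.76, -4.84 and -4.91 in Sham, -5.04, -4.89 and -4.99 in H/R and -4.22, -4.23 and -4.43 in EGR1OV. The EGR1OV libraries were above all others, and Sham and H/R overlapped. The shift of 0.54 from Sham is a 1.46-fold change of the ratio, and that of 0.68 from H/R a 1.60-fold change, each with an exact two-sided permutation p of 0.1. H/R against Sham was -0.14 (exact permutation p = 0.2). Even so, Hspa8 remained the far more abundant transcript in every library.

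**Figure D3:**
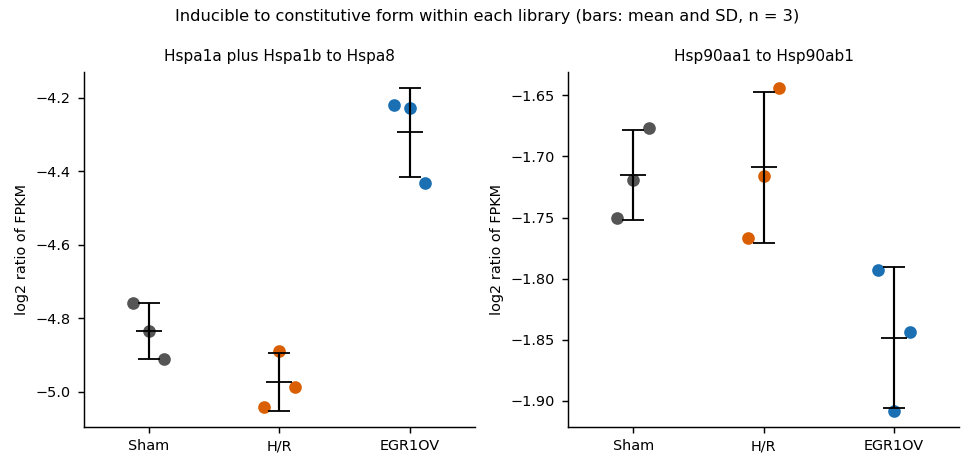
Log2 ratio of the FPKM of the inducible to the constitutive form in each library, on the left for Hspa1a plus Hspa1b to Hspa8 and on the right for Hsp90aa1 to Hsp90ab1; points are libraries, bars the group mean and SD (n = 3), and neither y axis starts at 0. The Hsp70 ratio is higher in the EGR1OV libraries, with a mean of -4.29 beside -4.83 in Sham, and the Hsp90 ratio is lower, with a mean of -1.85 beside -1.72.

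Hsph1 (ENSMUSG00000029657, chr5:149614287-149636376, minus strand) encodes Hsp105, a nucleotide exchange factor that drives the Hsp70 cycle. Its levels were 16.4, 16.8 and 17.3 FPKM in Sham, 17.5, 16.8 and 16.4 in H/R and 20.3, 22.8 and 22.2 in EGR1OV. All EGR1OV libraries were above all others, and Sham and H/R covered nearly the same range. The log2 difference was 0.35 against Sham (SE 0.045, ratio 1.29, adjusted p = 0.00019) and 0.35 against H/R (adjusted p = 0.000176). H/R against Sham was 0.00 (adjusted p = 0.978, 95% interval -0.0986 to 0.104).

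Dnajb1 (ENSMUSG00000005483, chr8:83608193-83612653, plus strand) encodes the inducible Hsp40, which hands clients to Hsp70. It stood at 18.5, 17.6 and 19.6 FPKM in Sham, 19.2, 18.4 and 18.5 in H/R and 19.2, 20.55 and 20.01 in EGR1OV. The 3 groups overlapped. The EGR1OV difference of 0.09 from Sham did not pass (SE 0.043, adjusted p = 0.104). It passed without Sham 3 alone (0.13, adjusted p = 0.0336) and did not when H/R 2 and H/R 3 were left out as well (0.13, adjusted p = 0.059).

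Hsp90aa1 (ENSMUSG00000021270, chr12:110690605-110702728, minus strand), the inducible Hsp90, varied little, at 256.5, 265.8 and 273.9 FPKM in Sham, 264.6, 268.4 and 275.5 in H/R and 260.7, 243.7 and 262.0 in EGR1OV. EGR1OV overlapped Sham and lay below H/R. No comparison passed, with differences of -0.06 (EGR1OV against Sham, adjusted p = 0.241), 0.02 (H/R against Sham, adjusted p = 0.735) and -0.08 (EGR1OV against H/R, adjusted p = 0.09995, and 0.0109 to 0.0359 under median-ratio scaling, quantile normalization and voom). The interval of the first, -0.136 to 0.0255, leaves room for only a small change. Its constitutive partner Hsp90ab1 was at 863.0, 875.0 and 876.1 FPKM in Sham, 900.4, 882.1 and 861.1 in H/R and 903.5, 914.6 and 940.3 in EGR1OV, with EGR1OV above both other groups, and its difference from Sham was 0.08 (adjusted p = 0.0344). That pass was lost in 11 of the 20 alternatives, among them median-ratio scaling (0.05, adjusted p = 0.185) and the fit without the 3 libraries high in Gm23935 (0.08, adjusted p = 0.0758). The log2 ratio of Hsp90aa1 to Hsp90ab1 averaged -1.72 in Sham and -1.71 in H/R, and -1.85 in EGR1OV. Every EGR1OV library was lower than every other library (exact permutation p = 0.1 against each), so within Hsp90 the inducible form took a smaller part, the reverse of the direction within Hsp70.

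Bag3 (ENSMUSG00000030847, chr7:128523616-128546981, plus strand) encodes an Hsp70 co-chaperone that couples damaged clients to autophagy together with small heat shock proteins, and it had the largest rise of the 10 genes. It stood at 33.8, 35.2 and 34.7 FPKM in Sham, 34.5, 35.4 and 32.8 in H/R and 47.4, 48.7 and 45.1 in EGR1OV. The EGR1OV libraries were far above the others, which overlapped. The mean was 34.6 ± 0.707 FPKM in Sham and 47.0 ± 1.80 in EGR1OV (SD, n = 3 each), a ratio of 1.36, with a log2 difference of 0.43 (SE 0.038, adjusted p = 1.4e-05). Against H/R the difference was 0.45 (adjusted p = 1.04e-05), and H/R against Sham was -0.01 (adjusted p = 0.869, 95% interval -0.098 to 0.0721). Under quantile normalization the difference from Sham was 0.37 (adjusted p = 2.95e-05) and no longer reached 1.3-fold.

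Hspb1 (ENSMUSG00000004951, chr5:135887919-135889563, plus strand) encodes Hsp27, a small heat shock protein that holds unfolded clients and protects the actin cytoskeleton. It was the most abundant of the 10 genes in Sham, with 503.5, 484.7 and 494.8 FPKM. H/R gave 528.4, 519.0 and 505.7, and EGR1OV gave 354.5, 380.0 and 363.7. No group overlapped another, with H/R just above Sham and EGR1OV well below both. Hspb1 fell by 25.9% in EGR1OV against Sham, a log2 difference of -0.43 (SE 0.031, adjusted p = 3.66e-06), and the difference from H/R was -0.50 (adjusted p = 1.3e-06). The H/R difference of 0.07 did not pass (adjusted p = 0.201), but did under quantile normalization (0.16, adjusted p = 0.0247). Hspb1 carries a pair of GAANNTTC units in the promoter stretch shown above, and its level went down. Hspa1b, Hsph1 and Bag3, which also carry units, went up. Hspa1a, with the same unit as Hspa1b but few reads, did not pass, and its ratio of means was close to that of Hspa1b. Whether these units bear on the levels was not tested.

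Cryab (ENSMUSG00000032060, chr9:50751325-50756636, plus strand) encodes αB-crystallin, a small heat shock protein that binds desmin and actin filaments. Its levels were 231.3, 235.7 and 242.6 FPKM in Sham, 242.6, 237.5 and 233.6 in H/R and 204.5, 213.5 and 224.3 in EGR1OV. EGR1OV was below both other groups, which overlapped. It fell by 9.48% against Sham (log2 difference -0.14, SE 0.036, adjusted p = 0.00882), and it did not pass without the 3 libraries high in Gm23935 (-0.13, adjusted p = 0.0624). Against H/R the difference was -0.15 (adjusted p = 0.00581). Of the 1479 exon bases of Cryab, 252 are shared with Hspb2 on the other strand, a gene with a mean of 0.907 FPKM in Sham and 1.38 in EGR1OV.

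Hspb1 and Cryab fell in the same libraries in which contractile genes fell. All 6 genes of a muscle list (Acta1, Acta2, Myh11, Cnn1, Des, Actg2) were lower in EGR1OV than in Sham, and their summed level was 3291 to 3415 FPKM in Sham, 2996 to 3216 in H/R and 1243 to 1325 in EGR1OV, most of it from Acta2, smooth muscle actin. Of 8 leukocyte genes tested, 7 were lower and Cd14 was higher, with sums over the 9 listed of 144.5 to 149.7 FPKM in Sham, 121.6 to 127.7 in H/R and 39.2 to 46.3 in EGR1OV. The sum over 13 tubular epithelial genes went from 1879 to 1918 FPKM in Sham to 1213 to 1319 in EGR1OV, mostly Krt8 and Krt18. Of the 8 tubular genes tested, 5 passed as lower and 2 as higher in EGR1OV against Sham. The lower genes were Krt8 (log2 difference -0.71), Krt18 (-0.73), Lrp2 (-1.05), Aqp1 (-0.75) and Cdh16 (-0.30). Cdh1 (0.23) and Epcam (0.39) were higher. Endothelial genes summed to 9.21 to 9.67 and 6.52 to 7.18 FPKM, fibroblast genes to 31.8 to 33.4 and 36.8 to 41.8, and podocyte genes to 5.72 to 6.00 and 5.74 to 6.28, in Sham and EGR1OV. In H/R these 4 sums were 1736 to 1815 FPKM for tubular, 9.41 to 9.77 for endothelial, 38.0 to 39.5 for fibroblast and 6.79 to 8.58 for podocyte genes. The part of such cells in the changes of the 10 genes was not tested.

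**Figure D4:**
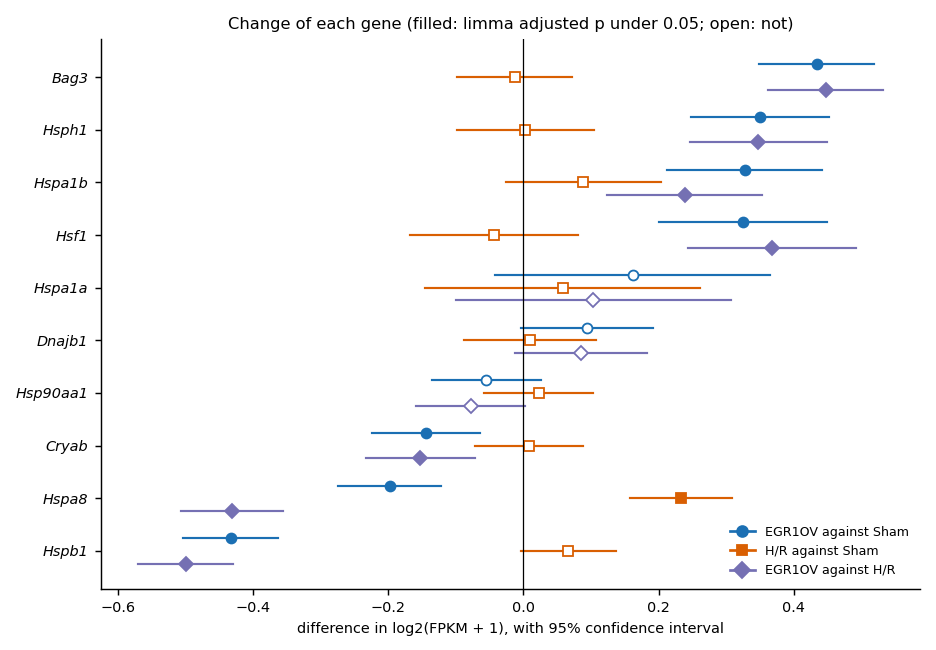
Difference in log2(FPKM + 1) for each of the 10 genes in the 3 comparisons, with 95% confidence intervals from the limma fit; filled symbols mark an adjusted p under 0.05, and genes are ordered by EGR1OV against Sham. Differences of EGR1OV from Sham run from -0.43 for Hspb1 to 0.43 for Bag3, and the H/R differences lie near 0 except that of Hspa8, at 0.23.

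Ordered by level in Sham, Hspb1 came first at 494.3 ± 9.43 FPKM (SD, n = 3), followed by Hspa8 at 431.1 ± 13.8, Hsp90aa1 at 265.4 ± 8.70 and Cryab at 236.5 ± 5.72. Bag3, Dnajb1, Hsph1, Hspa1b, Hsf1 and Hspa1a followed, from 34.6 down to 1.17 FPKM. No neighbours in this order overlapped between libraries in Sham. In H/R the order was the same, but Hspb1 and Hspa8 overlapped. In EGR1OV Hspa8 (375.8 ± 12.3) and Hspb1 (366.1 ± 12.9) overlapped at the top, and Hsph1 (21.8 ± 1.29) stood above Dnajb1 (19.9 ± 0.695) with overlap, which was the reverse of the order in Sham.

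A wider list of 61 heat shock and chaperone genes, set out by family but chosen with earlier results of these data known, had 53 genes above the filter. The 8 others (Hsf4, Hsf5, Hspa1l, Hspa12b, Hspb3, Hspb7, Hspb9 and Cryaa) stayed at or below 0.59 FPKM in every library. In EGR1OV against Sham, 32 of the 53 passed (60.4%, beside 45.9% of all genes), 15 of them higher and 17 lower (backgrounds 26.1% and 19.8%). Hspb8 and Dnajb5 were called, which is 3.77% of the list beside 16.4% of all genes. The median difference was -0.0145, beside 0.0172 over all tested genes. Of the 32, 31 passed in the same direction under median-ratio scaling and 28 under quantile normalization, and no sign was turned. Through all 20 alternatives 20 of the 32 passed. In H/R against Sham, 5 passed (9.43%, beside 11.7% of all genes), all lower (Dnajb5, Hspe1, Cct7, Fkbp4 and Bag6), with a median of -0.0405 beside -0.0298. No gene of the list was called by limma, which gave 17 at an unadjusted p under 0.05, and voom called 1. Of these 5, 2 passed again under median-ratio scaling, where 2 further genes passed as higher, and 2 under quantile normalization, where 1 further gene did, and none of the 5 passed in all 20 alternatives. In EGR1OV against H/R, 35 passed (66.0%, beside 51.0% of all genes), 18 higher and 17 lower, and 5 were called (9.43%, beside 18.9%). Without the 3 libraries high in Gm23935, which leaves 1 of H/R, Bag4 (-0.28) and Trap1 (0.31) were under 1.3-fold and Dnajb6 (0.41) was over it. Of these 35, 15 passed in all 20 alternatives, and many of the losses came in the fit without those 3 libraries. Under quantile normalization 29 of the 35 passed in the same direction, and Hspa4 went from 0.07 (adjusted p = 0.0446) to -0.0053 (adjusted p = 0.881).

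The gene of the wider list with the largest change was Hspb8, a small heat shock protein that works in complex with Bag3. It stood at 30.91, 28.56 and 30.01 FPKM in Sham, 28.7, 29.2 and 27.7 in H/R and 51.0, 51.3 and 53.9 in EGR1OV. The EGR1OV libraries were clear of all others. The log2 difference was 0.78 against Sham (SE 0.037, adjusted p = 1.91e-07) and 0.85 against H/R (adjusted p = 1.05e-07), so Bag3 and Hspb8 rose in the same libraries in which Hspb1 and Cryab fell. Hspb6, another small heat shock protein, fell by 0.34 against Sham (adjusted p = 0.000226), and Hspb2 did not pass.

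The counts by role that follow are for EGR1OV against Sham and stand beside 45.9% of all genes that passed, and with so few genes in a role none is set apart from that share. Among the Hsp40 family 4 of 9 passed (44.4%), Dnajb2 and Dnajb6 higher and Dnajb4 and Dnajb5 lower. Dnajb5 was the one called, with 7.51, 7.85 and 7.43 FPKM in Sham, 6.12, 6.99 and 6.51 in H/R and 5.498, 5.412 and 5.786 in EGR1OV. Its 3 groups did not overlap, and the difference of EGR1OV from Sham was -0.39 (adjusted p = 0.000177). It passed in every alternative but was under 1.3-fold without Sham 2 (-0.37) or without EGR1OV 2 (-0.37). The 4 mitochondrial chaperone genes that passed were all higher (Hspa9, Trap1, Dnaja3 and Grpel1, 66.7% of the 6 tested), under the other scalings too, although under quantile normalization a further gene of the 6 passed in the lower direction. Trap1, the mitochondrial Hsp90, was called against H/R (0.41, adjusted p = 6.34e-05). It passed but was not called under median-ratio scaling (0.34), under quantile normalization (0.32) and without the 3 libraries high in Gm23935 (0.31). It stood at 29.9, 31.4 and 31.2 FPKM in Sham, 30.7, 27.8 and 27.6 in H/R and 37.9, 37.2 and 39.8 in EGR1OV. Of the 8 subunits of TRiC, the ring chaperonin that folds actin and tubulin, 5 were lower (Tcp1, Cct2, Cct4, Cct6a and Cct8), 1 was higher (Cct3) and 2 did not pass, in each scaling, so that 75.0% passed. Cct8 lost its pass in 10 of the 20 alternatives. Without the 3 libraries high in Gm23935, Cct4 (-0.098), Cct6a (-0.108) and Cct8 (-0.079) did not pass.

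Bag3 relatives, which also release nucleotide from Hsp70, moved apart. Bag1 was at 81.1, 97.5 and 95.7 FPKM in Sham, 78.5, 81.6 and 92.5 in H/R and 116.8, 109.2 and 108.7 in EGR1OV, and Bag2 was at 29.1, 27.0 and 30.1, at 30.7, 31.8 and 29.4 and at 22.2, 22.8 and 22.2. EGR1OV libraries were above all others for Bag1 and below all others for Bag2. Against H/R both were called, Bag1 with 0.41 (adjusted p = 0.00204) and Bag2 with -0.43 (adjusted p = 3.17e-05), as was Bag4 with -0.39 (adjusted p = 0.00435). Bag2 was called in every alternative. Bag1 was not called under median-ratio scaling (0.34), under quantile normalization (0.32), without H/R 1 (0.36) or without EGR1OV 1 (0.37), and Bag4 was not called without H/R 2 (-0.33) or without EGR1OV 3 (-0.34) and did not pass without the 3 libraries high in Gm23935 (-0.28, adjusted p = 0.145). Against Sham the differences of these 3 genes were 0.29, -0.35 and -0.31, each of which passed the test without being called. Bag1 did not pass under quantile normalization (adjusted p = 0.0546) or without EGR1OV 1 (adjusted p = 0.0505), nor Bag4 without Sham 1 (adjusted p = 0.0516). Of the 12 co-chaperones of Hsp90 and Hsp70, 58.3% passed, and 4 were higher (Stip1, Ahsa1, Cdc37 and Fkbp5) and 3 lower (Fkbp4, Chordc1 and Ppid) in EGR1OV against Sham. Under quantile normalization 2 were higher and 5 lower. Chordc1 (-0.22) and Ppid (-0.13) did not pass without the 3 libraries high in Gm23935. Hsbp1, which binds trimers of Hsf1, fell by 0.16 (adjusted p = 0.00127), and Hsf2 did not pass (-0.12, adjusted p = 0.154) except under quantile normalization (-0.18, adjusted p = 0.0355). In the Hsp70 family Hspa2 and Hspa13 were lower and 2 of 4 genes did not pass, and in the Hsp110 family Hspa4 was higher (0.12, adjusted p = 0.00461) and Hspa4l did not pass (-0.04). Under quantile normalization Hspa4 did not pass (0.07, adjusted p = 0.0531) and Hspa4l passed as lower (-0.13, adjusted p = 0.0305).

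**Figure D5:**
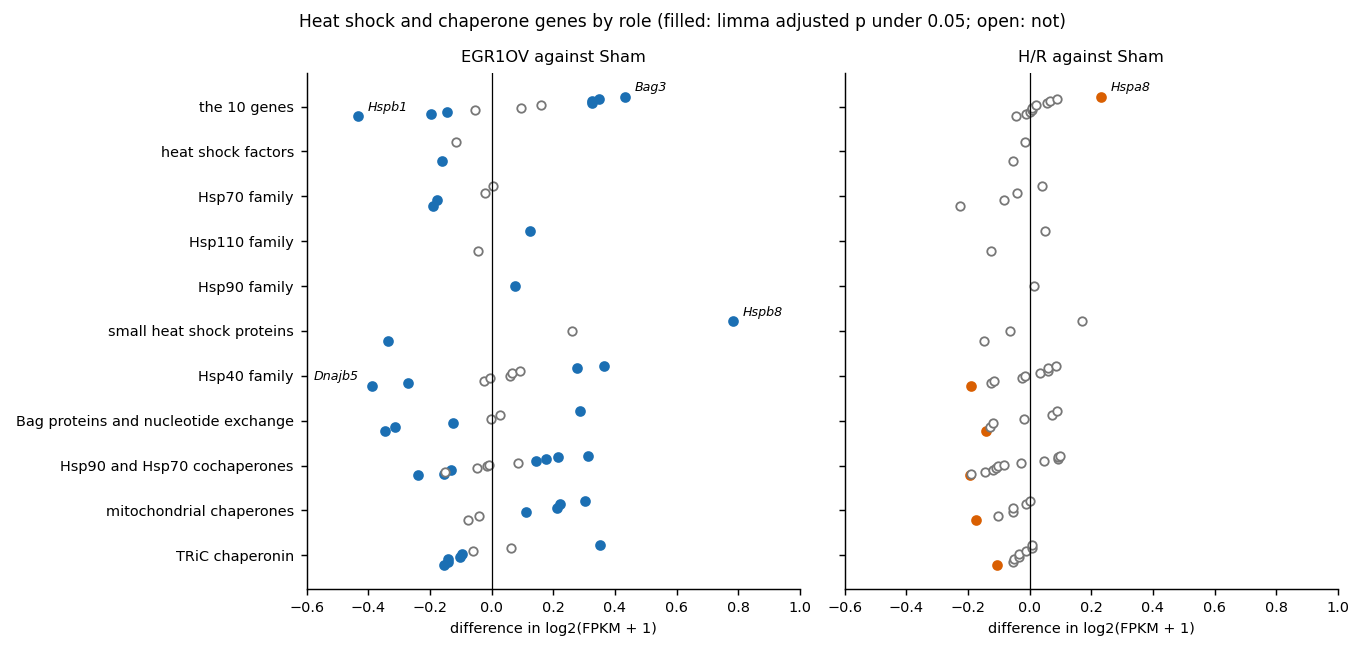
Difference in log2(FPKM + 1) of the 10 genes and of 53 other heat shock and chaperone genes by role, on the left for EGR1OV against Sham and on the right for H/R against Sham; each point is a gene, filled where the limma adjusted p is under 0.05. On the left the passing genes spread to both sides, 15 higher and 17 lower among the 53 others, and on the right 5 of the 53 pass, all lower, with Hspa8 the only passing gene among the 10.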

How the data were processed

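The 9 libraries were grouped by their sample titles. The authors deposited FPKM values of each library, from total RNA, and pooled no replicates. The submitters' processing notes name HISAT2 2.1.0, Bowtie2 2.2.3, TopHat2 and the build mm9, and the counter is not given in the sources used here. Gene positions in the table equal those of GENCODE M21 (GRCm38) in 94.6% of genes, so coordinates are those of GRCm38. With exon lengths from that annotation, FPKM steps gave whole reads within 0.02 for 94.0% of 162868 values, and from these the depths. Depth limits Hspa1a most.

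Genes that averaged 0.5 FPKM or more were tested as log2(FPKM + 1) with limma 3.58.1 in R 4.3.3 (lmFit, then eBayes with a trend, all 9 libraries in a fit, two-sided, Benjamini-Hochberg over 13985 genes). Intervals are 95%. On simulated data of 13834 genes for EGR1OV against Sham, 99 of 100 genes changed 1.5-fold and 99 of 100 changed 2-fold were recovered, with 8 false calls. The changed genes were drawn from those that averaged 5 FPKM or more, and the spread between simulated libraries was set by hand. Recovery of changes smaller than 1.5-fold, or of genes as low as Hspa1a, was therefore not measured. Sums and ratios were compared by exact two-sided permutation over libraries. Libraries of a group differed by more than counting noise (chi-square per degree of freedom of at least 1.97), so none was taken for a library deposited again, which does not show that they are independent cultures.

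The 10 genes and all lists were chosen with earlier results of these data known. Of the wider list, called genes were named (up to 3 per role and comparison with the largest change), and others that passed are named by role as counts of 5 or fewer or as examples, chosen after their values were seen. For Hsf1 and Hspa1a the 3 genes with the highest Pearson r were named. Alternatives were another pseudocount (0.1), a filter of 5 FPKM, no filter on low values, limma without trend and median-ratio and quantile scaling. Further ones were the replicate block, a fit of only the groups compared, the sum of Hspa1a and Hspa1b, and each library left out. Voom on recovered reads and a fit without 3 libraries were chosen after seeing the data and complete the 20 alternatives. Leaving out the fold threshold bears only on the numbers called and is not among these 20.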

Additional observations from a re-analysis of the deposited data

Results flagged for a closer look

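The EGR1OV and H/R effects were both taken against the same Sham libraries. Their difference is therefore the comparison of EGR1OV against H/R already given above, and not a further test. It passed for 7 of the 10 genes, where 51.0% of all tested genes did. The difference of the log2 changes was 0.37 for Hsf1, 0.24 for Hspa1b, 0.35 for Hsph1 and 0.45 for Bag3, where the EGR1OV effect was the higher, and -0.43 for Hspa8, -0.50 for Hspb1 and -0.15 for Cryab, where it was the lower. Hspa8 moved in opposite directions, by -0.20 in EGR1OV and by 0.23 in H/R. Among the named genes of the wider chaperone list the difference was 0.85 for Hspb8, 0.41 for Bag1, 0.41 for Trap1, -0.43 for Bag2, -0.39 for Bag4 and -0.20 for Dnajb5. That of Dnajb5 was smaller, at -0.12, without the 3 libraries high in Gm23935. With 3 libraries a group, no library was examined as an outlier within its group.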

How the results depend on the processing

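The numbers of all genes called (2291 in EGR1OV against Sham, 594 in H/R against Sham, 2641 in EGR1OV against H/R) went to 1315, 372 and 1520 with a filter of 5 FPKM, which tests fewer genes, and to 6417, 1635 and 7135 with no fold threshold, and leaving out each library gave 2238 to 2373, 449 to 579 and 2583 to 2703. For H/R against Sham voom on recovered reads called 995 genes, and 54 were called without Sham 3, H/R 2 and H/R 3, which leaves 1 H/R library that is assumed to vary like the other groups. Of the 10 genes, 2, 0 and 3 were called. With no fold threshold this became 7, 1 and 7, quantile normalization gave 0 in EGR1OV against Sham, and median-ratio scaling and quantile normalization each gave 1 in H/R against Sham. Of the wider chaperone list 2, 0 and 5 were called, and 32, 5 and 35 with no fold threshold. In EGR1OV against Sham a pseudocount of 0.1 gave 5, quantile normalization 4 and voom 6, and in H/R against Sham voom gave 1. The cause of these shifts was not tested beyond the filter and the fold threshold. Among the 10 genes, differences that turned sign did not pass the test in either setting. In H/R against Sham these were Bag3 (0.0259 under median-ratio scaling, 0.0035 under quantile normalization and 0.0028 without the 3 libraries), Hsf1 (0.0703) and Hspa1a (-0.0688) without the 3 libraries, and, when each library was left out, Hsf1 (-0.0918 to 0.00059), Hsph1 (-0.0204 to 0.0233), Hsp90aa1 (-0.00183 to 0.0453), Dnajb1 (-0.027 to 0.0477), Bag3 (-0.0365 to 0.017) and Cryab (-0.00747 to 0.0269). In EGR1OV against H/R this was Dnajb1 (-0.0251 under quantile normalization). The cause was not tested. Deviations of libraries with the same replicate number correlated at -0.195 to 0.263. Libraries with different numbers were not compared in this way, so whether equal numbers mark cells prepared together cannot be told. A replicate block gave 2309, 516 and 2654 genes called and left the calls of the 10 genes at 2, 0 and 3.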
